A study of Mus musculus with 4 samples.

Results

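The promoters described here belong to 46 genes of innate sensing and cell death, out of 26354 gene promoters in the deposited table. They were chosen by gene symbol alone: the Toll-like receptors (Tlr), the NOD-like receptors named Nlrp, Nlrc, Naip and Nod, and the caspases (Casp). H3K9me2, dimethylation of lysine 9 of histone H3, was measured by chromatin immunoprecipitation and sequencing (ChIP-seq) in vascular smooth muscle cells of the aorta of male C57Bl/6J mice. The medial layer was fixed directly, after adventitia and endothelium had been taken off by hand, so the cells were not sorted. There was no treatment, no culture and no genetic change, and the age of the mice and the number pooled per library are not given in the sources used here. The 2 experiments, v102 and v134, each gave 1 ChIP and 1 input library (input is the chromatin before immunoprecipitation), so every comparison is of ChIP with input in a single tissue.

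Toll-like receptors bind microbial lipids, proteins and nucleic acids at the cell surface or in endosomes. NOD-like receptors do so in the cytosol, and several of them assemble inflammasomes, complexes that activate caspase-1, which cleaves the precursors of interleukin-1β and interleukin-18. Another branch of the Nlrp family is expressed mainly in oocytes and early embryos and is not known for pathogen sensing. Most of the remaining caspases start or carry out apoptosis. H3K9me2 is deposited mainly by the methyltransferases Ehmt1 and Ehmt2 and is associated with silent or inducible genes in euchromatic regions. The members were placed in 5 groups: 8 inflammasome genes (Nlrp1a, Nlrp1b, Nlrp3, Nlrc4, Naip1, Naip2, Casp1 and Casp4), 11 oocyte-type Nlrp genes, 12 Toll-like receptors, 7 other NOD-like receptors and 8 other caspases.

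The measured quantity is the number of reads in a window reaching 1 kb to each side of the start site. Over all promoters, the ChIP libraries hold 162233 (v102) and 229605 (v134) reads and the input libraries 619100 and 1084349. Single members had between 0 and 90 ChIP reads and between 24 and 94 input reads summed over both experiments, so single ratios are imprecise. The log2 H3K9me2/input ratio compares the promoter's share of all ChIP reads with its share of all input reads in the same experiment, after 1 read was added to each count. A value of 0 stands for equal shares. Its median over all promoters was -0.31. Percentiles rank the mean of the 2 experiments among the 26354 promoters. A promoter was called above or below input where edgeR's quasi-likelihood test on the 4 libraries gave an adjusted p of at most 0.05 (Benjamini-Hochberg over all promoters). The test takes in counting error and the spread between the 2 ChIP and 2 input libraries, estimated with information shared over all promoters. A promoter whose experiments differ can thus still be called.

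The promoters that carry the contrast are shown first. These RefSeq sequences (GRCm38.p6) run from 250 bases before to 50 after the start site, 5′ to 3′ along the gene, with CG dinucleotides in capitals. Nlrp5 and Nlrp4b stand for the oocyte-type genes, Nlrp1a and Casp1 for the inflammasome genes, and Tlr1 and Casp2 for promoters called below input. The Nlrp5 sequence is chr7:23385639-23385938 on the plus strand and holds 9 CG dinucleotides. The Nlrp4b sequence is chr7:10687543-10687842 on the plus strand and holds 1 CG dinucleotide. The Nlrp1a sequence is chr11:71144655-71144954 on the minus strand and holds 2 CG dinucleotides. The Casp1 sequence is chr9:5298267-5298566 on the plus strand and holds 3 CG dinucleotides. The Tlr1 sequence is chr5:64933509-64933808 on the minus strand and holds 3 CG dinucleotides. The Casp2 sequence is chr6:42264735-42265034 on the plus strand and holds 26 CG dinucleotides. Across all 32841 RefSeq promoters the median was 7.
Nlrp5: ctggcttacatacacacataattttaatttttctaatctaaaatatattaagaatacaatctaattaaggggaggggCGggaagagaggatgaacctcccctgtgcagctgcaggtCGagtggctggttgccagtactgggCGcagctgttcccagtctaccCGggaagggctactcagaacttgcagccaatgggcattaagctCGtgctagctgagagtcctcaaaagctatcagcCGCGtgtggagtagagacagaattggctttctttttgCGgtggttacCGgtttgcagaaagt
Nlrp4b: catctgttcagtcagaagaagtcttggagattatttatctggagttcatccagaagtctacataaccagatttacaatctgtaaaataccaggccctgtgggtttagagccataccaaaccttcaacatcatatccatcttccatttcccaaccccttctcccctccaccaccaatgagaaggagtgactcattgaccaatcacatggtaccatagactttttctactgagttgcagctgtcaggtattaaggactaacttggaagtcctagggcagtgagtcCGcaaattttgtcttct
Nlrp1a: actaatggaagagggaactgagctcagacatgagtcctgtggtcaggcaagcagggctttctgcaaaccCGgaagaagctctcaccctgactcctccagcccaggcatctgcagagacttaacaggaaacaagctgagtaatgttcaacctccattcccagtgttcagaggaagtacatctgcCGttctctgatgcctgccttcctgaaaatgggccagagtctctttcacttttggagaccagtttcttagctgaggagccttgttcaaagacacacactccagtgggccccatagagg
Casp1: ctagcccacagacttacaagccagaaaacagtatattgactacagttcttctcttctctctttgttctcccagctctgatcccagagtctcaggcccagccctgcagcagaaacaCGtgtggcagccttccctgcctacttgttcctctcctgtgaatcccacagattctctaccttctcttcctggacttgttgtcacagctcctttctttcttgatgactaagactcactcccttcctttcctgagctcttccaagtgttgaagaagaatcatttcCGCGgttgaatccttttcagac
Tlr1: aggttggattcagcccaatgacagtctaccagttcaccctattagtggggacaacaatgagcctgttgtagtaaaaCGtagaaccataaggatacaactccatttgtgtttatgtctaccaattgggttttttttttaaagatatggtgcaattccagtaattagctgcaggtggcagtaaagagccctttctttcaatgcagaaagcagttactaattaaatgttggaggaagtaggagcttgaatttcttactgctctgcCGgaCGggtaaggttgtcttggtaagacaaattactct
Casp2: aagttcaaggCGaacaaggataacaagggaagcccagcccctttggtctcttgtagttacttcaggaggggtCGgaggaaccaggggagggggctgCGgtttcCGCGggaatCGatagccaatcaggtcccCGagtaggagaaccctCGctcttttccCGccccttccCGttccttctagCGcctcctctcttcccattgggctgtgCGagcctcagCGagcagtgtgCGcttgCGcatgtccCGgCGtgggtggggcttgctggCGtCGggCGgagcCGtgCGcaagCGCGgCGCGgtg
Casp2 stood apart from the others by its CG-rich sequence, while Tlr1 and Casp1 held 3 CG dinucleotides each in these 300 bases. In the 2 kb windows around the annotated starts, Tlr1 held 27 and Casp1 held 18.

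Of the 46 members, 16 were above input and 3 below. Among all promoters, 18.6% were above and 17% below. The oocyte-type Nlrp genes gave 8 of the 16 calls above input and the inflammasome genes 5, and Tlr11, Nlrp12 and Casp14 gave the others. Scaling by library totals instead of TMM gave 15 members above and 6 below input, against 16.3% and 21.5% of all promoters. With the experiment number as a block, 15 were above and 2 below (15.8% and 8.3% of all promoters). DESeq2 called 12 above and 0 below (11.6% and 0.102%), where 2 members were below at an unadjusted p under 0.05. It gave 25 members no adjusted p, among them the 3 that edgeR called below input. The median mean log2 ratio was 1.68 at the oocyte-type genes, 1.20 at the inflammasome genes, -0.20 at the Toll-like receptors, -0.40 at the other NOD-like receptors and -0.68 at the other caspases. With 5 reads added in place of 1, the medians of the last 3 groups were 0.43, 0.16 and 0.26, but the median of all promoters moved as well, from -0.31 to 0.34, so a sign alone says little and the percentiles place a group among all promoters. The log2 ratio was positive in both experiments at 25 members, negative in both at 11 and of opposite sign at 10, among them Nlrp3, Tlr4, Tlr9, Casp8 and Casp9.

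**Figure D1:**
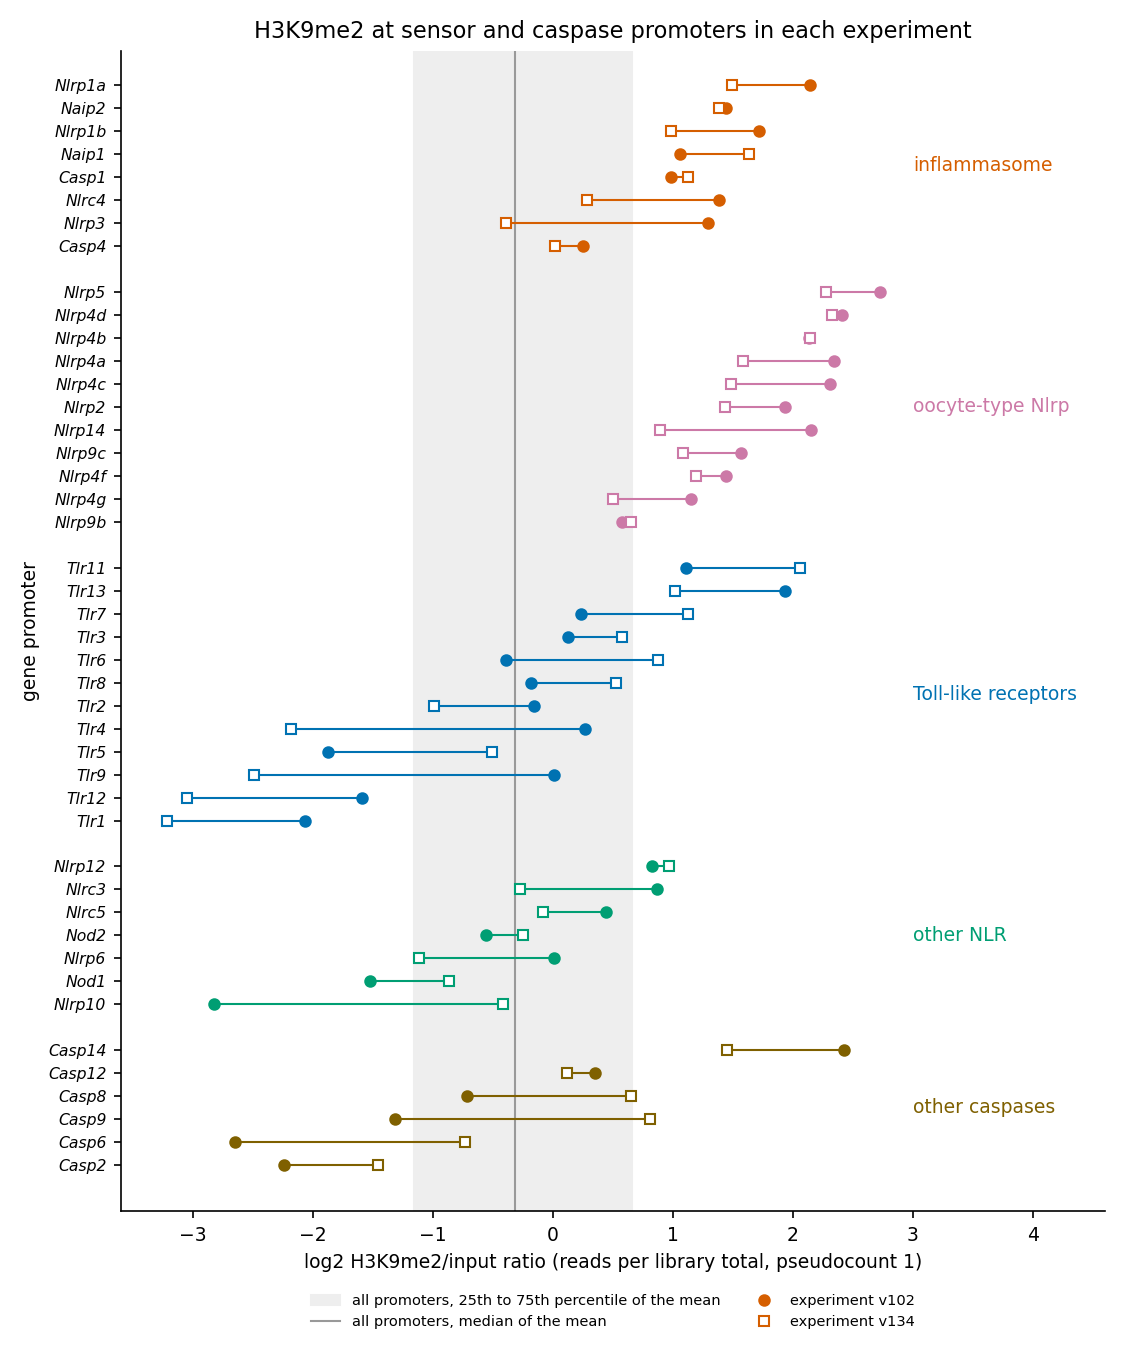
Log2 H3K9me2/input ratio (x axis, log2 units) of 44 of the 46 promoters (grouped and ordered by the mean) in experiment v102 (filled circles) and v134 (open squares), with the middle 2 quartiles and the median of all promoters in grey. All 11 oocyte-type Nlrp promoters lie above 0 in both experiments, while Toll-like receptors and caspases extend from above 2 to below -2.

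The oocyte-type Nlrp promoters were high as a group: 9 of 11 were in the top quartile of the log2 ratio in both experiments, against 17.7% of all promoters. Nlrp5 (ENSMUSG00000015721.18; chromosome 7, 23385889 to 23441922, plus strand), also called Mater, encodes a maternal factor that the early embryo needs. Its promoter had 39 and 43 ChIP reads (v102 and v134) against 22 and 42 input reads. Over both experiments this gave a deposited ratio of ChIP to input of 1.28 (95% Wilson interval 0.925 to 1.77, counting error only), compared with a median of 0.162 over all promoters, and the log2 fold change over input was 2.63 (standard error 0.34, adjusted p = 3.03e-12). At percentile 99.1 it was the highest of the 46 members. Nlrp14 (ENSMUSG00000016626.10; chromosome 7, 107166990 to 107198102, plus strand), a germ cell gene, had 20 and 21 ChIP reads against 17 and 55 input reads. Its mean log2 ratio was 1.52 ± 0.89 (SD, n = 2), and the adjusted p was 0.000683. Nlrp2, another maternal-effect gene, had 16 and 27 ChIP reads against 16 and 48 input reads, a mean log2 ratio of 1.68 ± 0.35 (SD, n = 2) and an adjusted p of 9.18e-05. Its window overlaps that of the predicted gene Gm5065, so some of its reads may be counted for both.

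The Nlrp4 branch, a mouse-expanded set of paralogs with oocyte expression, held 5 of the 8 calls in this group. Nlrp4d, annotated as an unprocessed pseudogene, had 38 and 52 ChIP reads against 27 and 49 input reads. Nlrp4b had 14 and 29 ChIP reads against 12 and 31 input reads, a deposited ratio of exactly 1. Nlrp4a had 19 and 20 ChIP reads against 14 and 32 input reads. In these 3 promoters the ChIP reads exceeded the input reads in experiment v102, although the ChIP library was the shallower. In the same experiment, ChIP reads also matched or exceeded input reads at Nlrp4c, Nlrp5, Nlrp14, Nlrp2, Nlrp1a, Tlr13 and Casp14. Nlrp4c had 25 and 28 ChIP reads against 19 and 48 input reads. Nlrp4f, on chromosome 13, had 9 and 13 ChIP reads against 13 and 28 input reads. Nlrp4g, a transcribed pseudogene on chromosome 9, had 6 and 5 ChIP reads against 11 and 19 input reads. The log2 fold change over input ranged from 0.81 at Nlrp4g to 2.50 at Nlrp4d, and the adjusted p from 1.24e-11 at Nlrp4d to 0.299 at Nlrp4g, which was not called. Nlrp4f (adjusted p = 0.0191) lost its call in the paired fit, where the experiment number was a block (adjusted p = 0.0542). In the Nlrp4g window, 22.5% of 75-base words also occur elsewhere in the assembled chromosomes, so the placement of reads there is uncertain.

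The Nlrp9 genes, also oocyte-expressed, gave no call. Nlrp9c had 6 and 8 ChIP reads against 8 and 19 input reads (log2 fold change 1.31, standard error 0.59, adjusted p = 0.068). Nlrp9b had 8 and 11 ChIP reads against 22 and 35 input reads (log2 fold change 0.67, standard error 0.47, adjusted p = 0.257). Both had positive log2 ratios in both experiments. Repeated words made up 4.31% and 2.65% of their windows. The start of Nlrp9b is also uncertain, since the RefSeq promoter lies 16558 bases from the GENCODE start.

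Among the inflammasome genes, the Nlrp1 and Naip promoters were the highest 4, followed by Casp1, Nlrc4, Nlrp3 and Casp4. Nlrp1a (ENSMUSG00000069830.10; chromosome 11, 71092236 to 71144704, minus strand), a sensor that is activated through its own proteolysis, had 21 and 30 ChIP reads against 18 and 51 input reads. Its deposited ratio was 0.739 (interval 0.516 to 1.06), and the log2 fold change over input was 1.86 (standard error 0.36, adjusted p = 6.76e-06). Its neighbour Nlrp1b (chromosome 11, 71153102 to 71230733, minus strand), the lethal toxin sensor, had 24 and 27 ChIP reads against 28 and 66 input reads, with a log2 fold change of 1.42 (standard error 0.35, adjusted p = 0.000552). The starts of these paralogs lie 86.0 kb apart, and both were also called by DESeq2 (adjusted p = 0.00538 and 0.0265).

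The Naip proteins bind bacterial flagellin or secretion system parts and hand the signal to Nlrc4. Naip1 had 11 and 20 ChIP reads against 21 and 31 input reads, and Naip2 had 14 and 20 against 20 and 37. Their mean log2 ratios were 1.34 ± 0.41 and 1.42 ± 0.04 (SD, n = 2), and both were above input (adjusted p = 0.00265 and 0.00155). In their windows, 5.92% and 5.24% of 75-base words occur elsewhere in the genome. Nlrc4 itself (chromosome 17, 74425438 to 74459142, minus strand) had 12 and 14 ChIP reads against 18 and 57 input reads. Its log2 ratio was 1.38 in v102 and 0.29 in v134, and it was not called (adjusted p = 0.128).

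Nlrp3 (ENSMUSG00000032691.14; chromosome 11, 59541568 to 59566956, plus strand), the sensor of membrane damage and crystals studied most in atherosclerosis, was not called. It had 8 and 4 ChIP reads against 13 and 30 input reads, a log2 ratio of 1.29 in v102 and -0.39 in v134 and an adjusted p of 0.559. The experiments thus placed it at percentiles 84.2 and 49.5. Casp1 (chromosome 9, 5298517 to 5307265, plus strand), the effector protease of inflammasomes, had 12 and 18 ChIP reads against 24 and 40 input reads, a log2 fold change of 1.16 (standard error 0.41) and an adjusted p of 0.0196. DESeq2 gave it 0.124. Casp4, the mouse receptor of cytosolic lipopolysaccharide also called caspase-11, lies next to it. It had 4 and 8 ChIP reads against 15 and 41 input reads, a log2 fold change of 0.06 (standard error 0.55) and an adjusted p of 0.935. Casp12, a further member of this locus, had 6 and 10 ChIP reads against 20 and 47 input reads and was not called either (adjusted p = 0.745).

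The comparison of oocyte-type with inflammasome genes gave the same order in both experiments. The median log2 ratio of the oocyte-type genes was 2.14 in v102 and 1.43 in v134, and that of the inflammasome genes 1.34 and 1.06. The difference of the medians over the mean ratio was 0.48, with 0.80 in v102 and 0.38 in v134. Reads pooled over the group gave a scaled ratio of 4.22 (95% Wilson interval 3.45 to 5.15) in v102 and 2.99 (2.56 to 3.49) in v134 for the oocyte-type genes. For the inflammasome genes it was 2.58 (2.02 to 3.29) and 1.89 (1.55 to 2.29). The intervals of the 2 groups did not overlap in either experiment, but they cover counting error only and not the spread between genes. The groups overlapped gene by gene: 5 of 11 oocyte-type promoters were above every inflammasome promoter and 2 were below the inflammasome median, while 2 of 8 inflammasome promoters, Nlrp3 and Casp4, were below every oocyte-type promoter. No test over genes was made, and 2 experiments allow no two-sided exact p under 0.5.

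**Figure D2:**
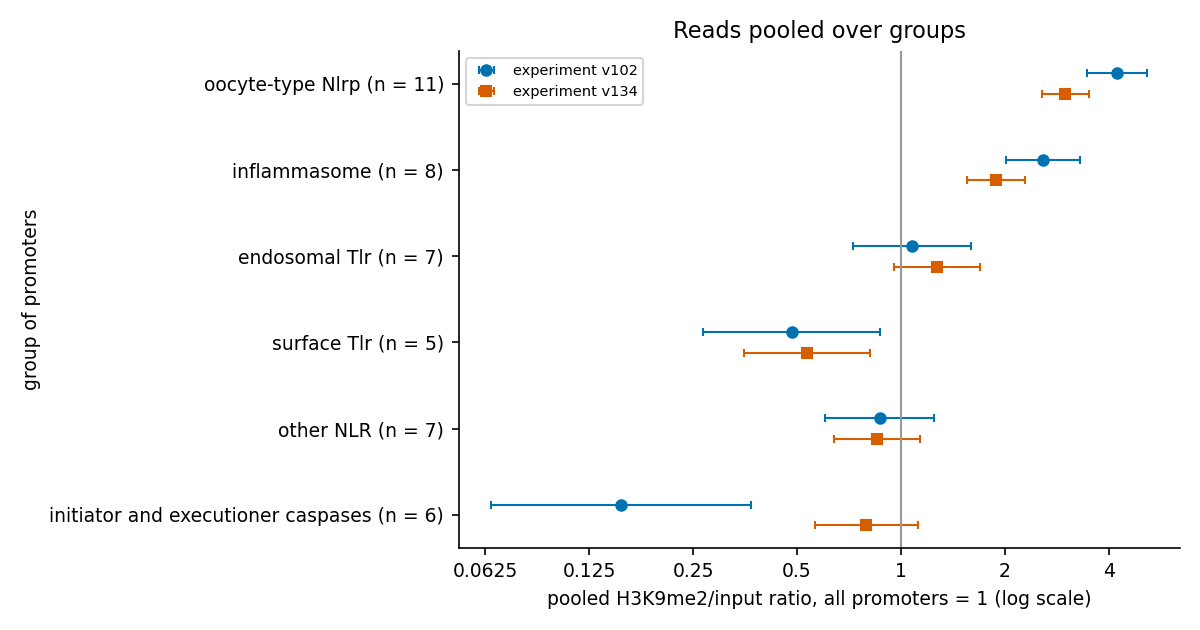
Pooled H3K9me2/input ratio (x axis, log scale, all promoters = 1) of the reads summed over each group in experiment v102 (circles) and v134 (squares), with 95% Wilson intervals for counting error. Oocyte-type and inflammasome genes lie above 1 and surface Toll-like receptors below 1 in both experiments, while the initiator and executioner caspases are at 0.155 in v102 and 0.794 in v134.

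Single promoters were also compared across groups with the two-sided Fisher's exact test, using reads summed over the experiments, for 6 pairs with Benjamini-Hochberg adjustment. The test covers counting error only. The deposited ratio of Nlrp3 was 0.218 times that of Nlrp5 (exact p = 1.42e-05, adjusted 8.52e-05), and lower in both experiments. Nlrp3 was at 0.490 times Nlrp14, a difference within counting error (exact p = 0.0765, adjusted 0.144).

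Toll-like receptors spanned nearly the whole range of promoters, from percentile 1.21 to percentile 90.8, and endosomal and surface members overlapped. The median mean log2 ratio was 0.35 over 7 endosomal and -0.96 over 5 surface receptors, with pooled ratios of 1.08 and 1.27 (v102 and v134) for the former and 0.482 and 0.535 for the latter, a difference that was not tested. The endosomal Tlr12 and Tlr9 were below every surface receptor but Tlr1. Tlr11, which binds a profilin of protozoa, was the only Toll-like receptor above input. It had 12 and 22 ChIP reads against 22 and 25 input reads, and a log2 fold change of 1.75 (standard error 0.42, adjusted p = 0.000292). Its closest relative Tlr12, which binds the same ligand, was below input with 1 and 0 ChIP reads against 22 and 38 input reads (log2 fold change -3.53, standard error 1.04, adjusted p = 0.00399). This pair thus lay near opposite ends of the family.

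Tlr1, which pairs with Tlr2 to bind triacylated lipoproteins, had no ChIP read in either experiment against 15 and 43 input reads. If 3 ChIP reads are assumed over both libraries, its share of ChIP reads is 4.45-fold lower than its share of input reads. The 95% Wilson upper limit of its deposited ratio was 0.0662 (counting error only), against a median of 0.162 over all promoters. The edgeR test against input gave an adjusted p of 0.000662, and the fitted fold change is no estimate of size here. Tlr6, its neighbour on chromosome 5 and the other partner of Tlr2, had 3 and 13 ChIP reads against 19 and 35 input reads and was not called (adjusted p = 0.443). Tlr2 had 3 and 4 ChIP reads against 16 and 46 input reads (mean log2 ratio -0.57 ± 0.59, SD, n = 2, adjusted p = 0.278). Tlr4, the lipopolysaccharide receptor, had 5 and 1 ChIP reads against 18 and 42 input reads (mean log2 ratio -0.96 ± 1.74, adjusted p = 0.207). Fisher's exact test did not separate Tlr4 from Tlr2 (0.886 times, exact p = 1, adjusted 1), though 6 and 7 ChIP reads can show large differences only. Tlr5, the flagellin receptor, had 1 and 6 ChIP reads against 27 and 46 input reads and was not called (adjusted p = 0.126).

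Of the receptors for nucleic acids, Tlr3 binds double-stranded RNA and had 5 and 11 ChIP reads against 20 and 37 input reads (adjusted p = 0.512). Tlr9, the receptor for CpG DNA, had 4 and 1 ChIP reads against 18 and 52 input reads (adjusted p = 0.0654). Scaled by library totals it was below input (adjusted p = 0.0392). Tlr7, Tlr8 and Tlr13 sense single-stranded RNA and lie on the X chromosome, of which male mice carry 1 copy. The median X-linked promoter had 10 and 20 input reads, against 20 and 37 at autosomal promoters. Tlr7 had 3 and 11 ChIP reads against 12 and 25 input reads (mean log2 ratio 0.68 ± 0.63, adjusted p = 0.224). None of the X-linked receptors was called, and Tlr13, at percentile 89.1, rested on 4 input reads in v102 and 20 in v134.

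The other NOD-like receptors were near the typical promoter in their median (percentile 47.5), but single genes lay between percentiles 13.4 and 79.7. Nlrp12, a negative regulator of inflammatory signalling in myeloid cells, was the only one called. It had 12 and 21 ChIP reads against 27 and 52 input reads (log2 fold change 1.00, standard error 0.39, adjusted p = 0.0352). With library totals the adjusted p was 0.0811 and with DESeq2 0.171. Nod1 and Nod2, which sense peptidoglycan fragments, had 1 and 4 ChIP reads against 21 and 42 input reads and 4 and 7 against 27 and 44. Their adjusted p-values were 0.0986 and 0.53, and the ratio of Nod2 to Nod1, 1.95, was within counting error (exact p = 0.293, adjusted 0.351). Nlrc3, Nlrc5, Nlrp6 and Nlrp10 were between percentiles 13.4 and 66.6 and were not called.

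The 6 initiators and executioners of apoptosis had a median mean log2 ratio of -1.40, and only Casp2 was called, below input. This is 16.7% of them, close to the 17% of all promoters. Their pooled ratio was 0.155 in v102 (interval 0.065 to 0.369), where it rested on few ChIP reads. In v134 it was 0.794, with an interval of 0.564 to 1.12 that includes 1. Casp8 and Casp9 were at percentiles 58.3 and 51.7. Casp2, an initiator that responds to DNA damage, had 0 and 2 ChIP reads against 17 and 38 input reads (log2 fold change -2.46, standard error 0.90, adjusted p = 0.0231, but 0.0714 in the paired fit). Casp6, with 0 ChIP reads in v102, had an adjusted p of 0.062 and was called below input when scaled by library totals (0.0373). The initiators Casp8 and Casp9 differed between the experiments. Casp8, which acts at death receptors, had 3 and 16 ChIP reads against 24 and 50 input reads. Casp9, which acts in the apoptosome, had 1 and 9 against 18 and 26. Both had negative log2 ratios in v102 and positive ones in v134, and neither was called (adjusted p = 0.625 and 0.901). In simulated counts, 92% of 50 promoters raised 4-fold were called, and 18% of 50 lowered to 0.25 of their level. Only 200 promoters were changed there, so these rates do not carry over to the real fit.

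Casp14, which processes filaggrin in the epidermis and is not known for a part in apoptosis, had the highest caspase promoter. It had 23 and 17 ChIP reads against 16 and 30 input reads, a deposited ratio of 0.870 (interval 0.571 to 1.32), a log2 fold change of 2.08 (standard error 0.40) and an adjusted p of 5.56e-06. At percentile 95.1 it lay among the oocyte-type Nlrp genes.

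**Figure D3:**
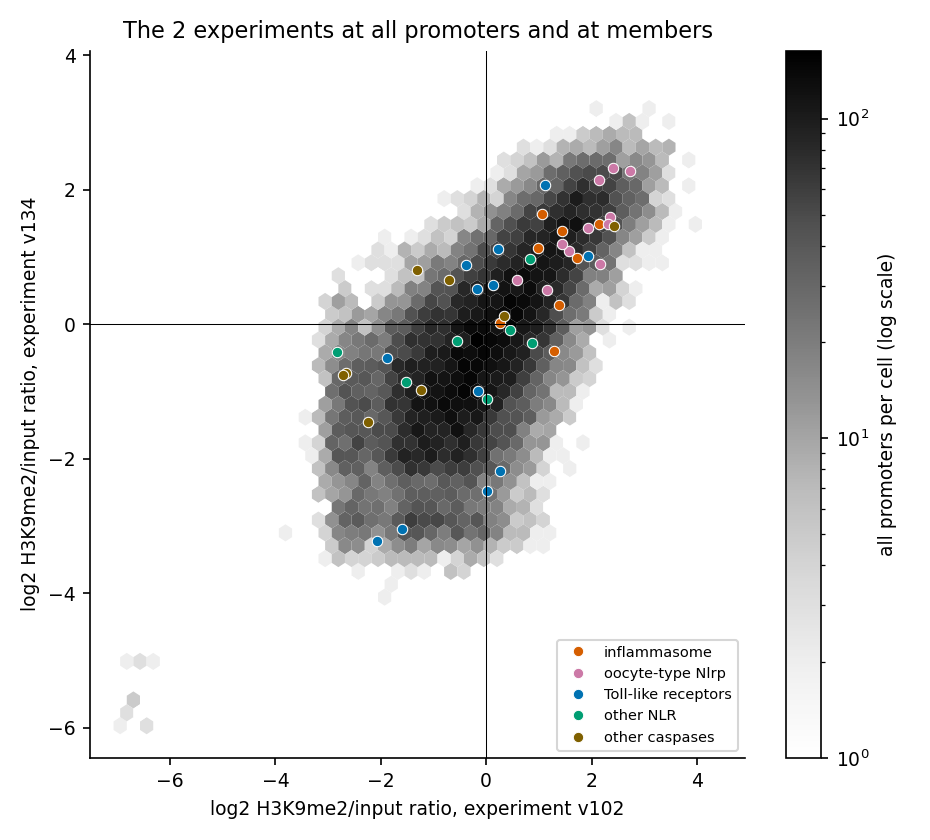
Log2 H3K9me2/input ratio in experiment v102 (x axis) and v134 (y axis) for all promoters (grey cells, darker with more promoters, log scale) and for the 46 members (coloured by group). The members lie within the cloud of all promoters, with the oocyte-type Nlrp genes in the upper right.

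Spearman's rho between the experiments' log2 ratios was 0.786 across the 46 members and 0.678 over the 22329 promoters with an annotated position. This is a description, as the points share libraries.

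The members also differed in base composition, which the choice of members did not use. The windows of the oocyte-type and inflammasome genes had a median GC content of 41.1% and 42.7%, that of the initiator and executioner caspases 52.7%, and all promoters 50.9%. The value of Casp8 is uncertain, as its RefSeq promoter lies 7128 bases from the GENCODE start. The observed over expected CpG frequency was 0.214, 0.178 and 0.625 in the same 3 groups and 0.441 over all promoters. The log2 ratio fell with GC content, with a Spearman rho of -0.518 over the members and -0.543 over the 22329 positioned promoters. Among promoters with 40% to 45% GC, the median mean log2 ratio was 1.79 over 8 oocyte-type genes, 1.34 over 3 inflammasome genes and 0.30 over 6 Toll-like receptors, against 0.58 over all 2914 promoters of this class. Other classes held few members. Between 45% and 50%, the median was 1.35 over 3 inflammasome genes, above the single oocyte-type gene Nlrp9b (0.62), against -0.03 over all promoters. Under 40%, it was 1.49 over 2 oocyte-type genes and 0.60 over 2 inflammasome genes, against 1.38 over all promoters. With the GC trend removed, the median percentile was 84.9 for the oocyte-type and 71.5 for the inflammasome genes, and 7 of 11 and 3 of 8 remained above percentile 75. Nlrp1a (97.7) and Nlrp1b (90.6) stayed high among the inflammasome genes, while Casp1 went to 54.9 and Casp4 to 19.9. Tlr1, at 43.2% GC, was at percentile 0.260 after this correction. The part of base composition in these values beyond this trend was not tested.

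**Figure D4:**
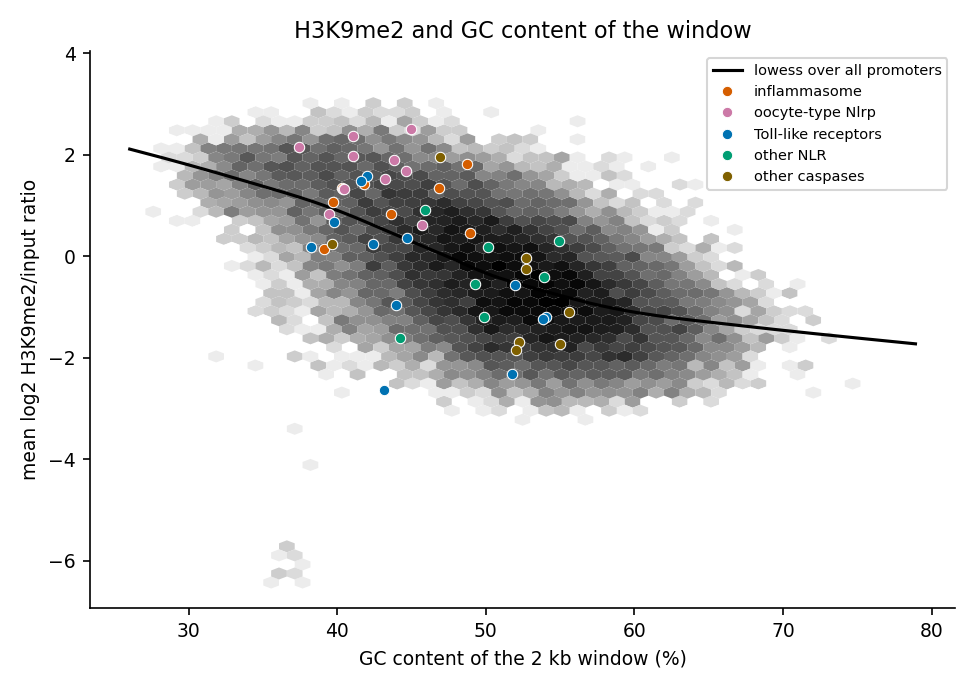
Mean log2 H3K9me2/input ratio (y axis) against the GC content of the 2 kb window (x axis, %) for all positioned promoters (grey cells, darker with more promoters) and the 46 members (coloured by group), with the lowess trend of all promoters as a line. Most oocyte-type Nlrp genes lie above the trend, and Tlr1, Nlrp10 and Tlr12 are among the members far below it.

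In the RefSeq promoters, given for 37 of the 46 members, both strands were searched for 4 motifs. A kappa-B-like motif, named for NF-kB, occurred in 6 of the 37 (Nlrp3, Casp4, Nlrp4a, Tlr2, Tlr3 and Tlr5) and in 20.7% of all 32841 RefSeq promoters. The AP-1 motif TGANTCA occurred in 2 of 8 oocyte-type promoters (Nlrp4b and Nlrp4f), in Nlrp6 and Tlr9, and in 7.81% of all. The letters TATAAA of the TATA box, on either strand, occurred in Naip1, Nlrp9b, Tlr6 and Tlr8, and in 13.6% of all. In Naip1, Nlrp9b and Tlr6 they lie on the opposite strand only, and in Tlr8 also along the gene. The E-box CACGTG occurred in Casp1 and in 7.15% of all. A match describes the letters and not binding.

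The groups also differed in their surroundings. The oocyte-type genes lie mostly on chromosome 7 (9 of 11), and for each member the percentiles of the promoters within 500 kb were taken, leaving out the 46 members themselves. Their median was above percentile 75 at 9 of 11 oocyte-type genes, and up to 97.5 at Nlrp4b and Nlrp4d. Nlrp5 had only 2 such neighbours. Nlrp2 (54.1) and Nlrp9b (36.5) were the exceptions. Casp1 and Casp4 had no neighbour other than members. At the remaining 6 inflammasome genes the median was between 37.2 and 54.9, with 37.2 at Nlrp1a. Of the 131 promoters near oocyte-type genes, 51.9% were above input, compared with 10.1% of the 79 near inflammasome genes and 18.6% of all promoters. The share was 31.7% near Toll-like receptors, 19.9% near other NOD-like receptors and 14.9% near other caspases. The median GC content was 44.5% for promoters near oocyte-type genes and 52.6% for those near inflammasome genes, a difference that was not adjusted for. Vomeronasal and olfactory receptor genes made up 51 of the 131. Without them, the median percentile of the remaining 80 was 52.3, compared with 42.6 for the 76 remaining promoters near inflammasome genes. This description was chosen after the values of the members had been seen.

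**Figure D5:**
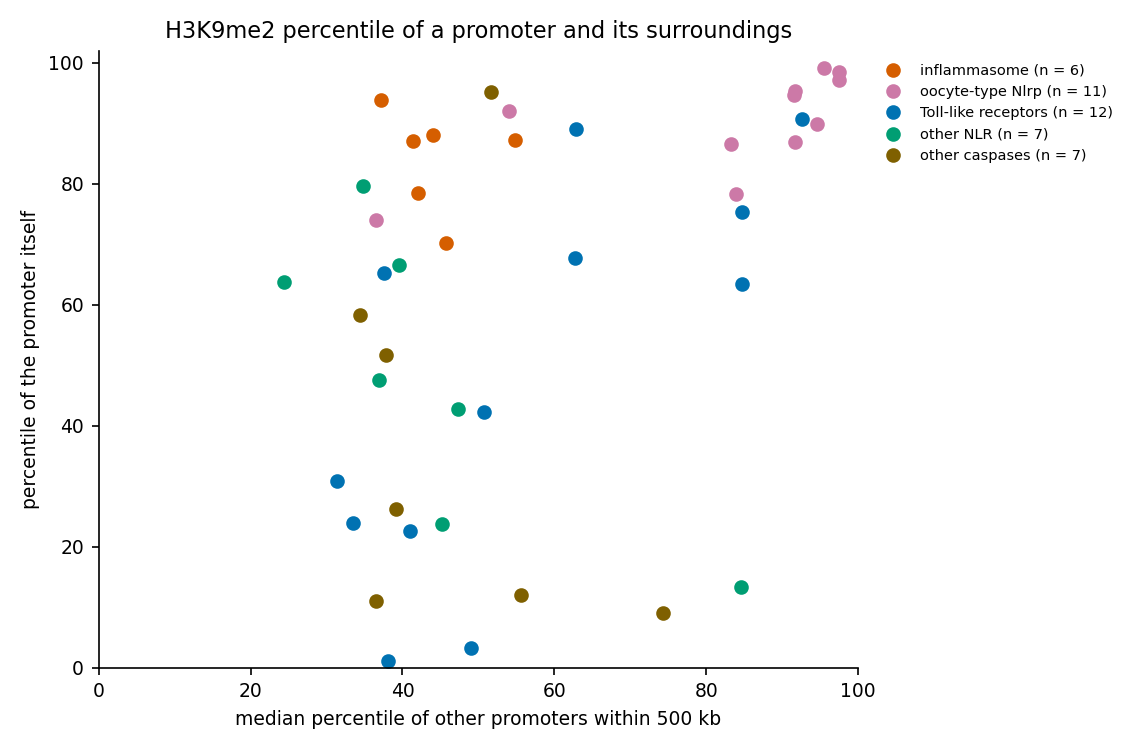
Percentile of each promoter's mean log2 ratio (y axis) against the median percentile of the promoters within 500 kb that are not members (x axis), for the 43 members with such neighbours, coloured by group. Of 11 oocyte-type Nlrp genes, 9 lie in the upper right corner, near Tlr11, while the inflammasome genes are above percentile 70 beside neighbours with medians of 37.2 to 54.9.

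Genes that work with these sensors were called about as often as all promoters, of which 18.6% were above and 17% below input. Of 23 partners of Toll-like receptors and inflammasomes, 4 were above and 4 below input, with a median percentile of 47.1. The 4 above were Mefv, which encodes the sensor pyrin (33 and 18 ChIP reads against 22 and 36 input reads, adjusted p = 4.92e-07), and the interleukin genes Il18, Il1b and Il1a, with adjusted p-values of 0.00154, 0.0063 and 0.0239. With DESeq2, Il1b (0.0508) and Il1a (0.123) lost their calls. The first 2 of these interleukins are substrates of caspase-1. The 4 below were the adaptor Myd88, the ligase Traf6, the kinase Irak2 and the co-receptor Cd14. Each of these 4 lost its call in the paired fit (adjusted p 0.0584 to 0.0647). The inflammasome adaptor Pycard (0.196) and the pore-forming Gsdmd (0.993) were not called. Of 11 apoptosis partners, none was above input and 2, Ripk1 and Bak1, were below, with adjusted p-values of 0.0743 and 0.0535 in the paired fit. Of 12 oocyte genes outside the Nlrp family, none was above input, against 18.6% of all promoters. Mos and Bmp15 were highest at percentile 73.3, and Tle6 was below input (adjusted p = 0.00734). Over these 12 genes the median mean log2 ratio was -0.48, against 1.68 at the oocyte-type Nlrp genes. Their windows had 40.5% (Oosp1) to 54.4% GC (Tle6), against 37.4% to 45.7% at the oocyte-type Nlrp genes. These medians were not adjusted for base composition.

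Promoters of cell type markers varied as widely. Among 5 smooth muscle markers, Myh11 was below input with no ChIP read against 19 and 41 input reads (percentile 0.736). Smtn was above (adjusted p = 0.000169), at percentile 88.7. The other smooth muscle markers Tagln, Acta2 and Cnn1 were not called and lay at percentiles 31.1, 25.9 and 10.5. Of 2 leukocyte markers, Ptprc was above input and Cd68 was not called, at percentile 11.3. Of 3 endothelial and 2 fibroblast markers, Pecam1 and Pdgfra were below input, calls that were lost in the paired fit (adjusted p = 0.0922 and 0.0564), and Cdh5, Kdr and Pi16 were not called. H3K9me2 at a promoter does not tell which cells were present, so the purity of the tissue was not tested.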

How the data were processed

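H3K9me2 ChIP and input libraries of 2 experiments were analysed. The authors trimmed paired-end reads (Trim Galore 0.4.2, cutadapt 1.9.1), aligned them to GRCm38 with Bowtie2 2.2.7, counted reads around start sites with SeqMonk and removed genes with low input, and they deposited raw read counts per promoter. The deposited ratio divides the summed ChIP counts by the summed input counts and is not scaled for depth, and 3 columns pool the experiments. The annotation release and the handling of duplicate reads are not given in the sources used here, and without molecular identifiers reads may be copies of 1 molecule, so intervals cover counting error only. The lowest summed input was 21 reads. Nothing in the sources used here states that the experiments came from separate animals. The p-values thus cover counting error and the spread between these libraries, estimated over all promoters, and not a known spread between mice.

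ChIP was tested against input over all 26354 promoters with edgeR's quasi-likelihood test (edgeR 4.0.16, R 4.3.3) with TMM and Benjamini-Hochberg adjustment. DESeq2 1.42.0, library totals, a minimum of 20 reads in each input, a fit without mitochondrial promoters and a paired fit were alternatives. The study gave each ChIP its own input. The ChIP and input differences between experiments had a correlation of 0.104. On simulated counts for 26354 promoters, of which 200 were changed, 92% of 50 promoters raised 4-fold were called. So were 6% of 50 raised 2-fold and 6 of 26154 unchanged ones. Far more promoters were called in the data, so these rates do not carry over to the real fit. Over all promoters the median log2 fold change was -0.35 with TMM and -0.50 with library totals, a shift of -0.14, and changes are relative to these. Positions came from GENCODE M21 (22329 symbols matched, 84.7%, with all 46 members), base composition from the GRCm38.p6 genome, and promoter sequences from RefSeq. The GC trend was a lowess fit (fraction 0.3). Python 3.11.15, scipy 1.17.1 and statsmodels 0.14.6 were used. Members and lists were chosen with earlier results of these data known. Values per library are given for all inflammasome and oocyte-type members, every called member, and Tlr2, Tlr3, Tlr4, Tlr7, Tlr9, Nod1, Nod2, Casp8 and Casp9. The values of 2 members, and the comparisons that need them, are not reported here, but group counts and medians include them. Values of Tlr5, Tlr6, Tlr13, Casp12 and the list genes with reads printed were added after their values were seen.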

Additional observations from a re-analysis of the deposited data

How the results depend on the processing

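The 16 calls above input became 15 with library totals, 12 with DESeq2 and 15 in the paired fit with the replicate block. They became 8 under an input minimum of 20 reads per library, which 20 of the 46 members met. None of these 20 members changed its call. The 3 calls below became 6 with library totals, 0 with DESeq2 (2 at an unadjusted p under 0.05), 1 with the input minimum and 2 with the replicate block. DESeq2 gave Tlr1, Tlr12 and Casp2 no adjusted p, so it could not call them. The input minimum left out Tlr1 and Casp2 before testing, and Tlr12 kept its call. Leaving out mitochondrial promoters changed no member's call. DESeq2 lost Naip1, Casp1, Nlrp4f and Nlrp12, library totals lost Nlrp12, and the replicate block lost Nlrp4f and Casp2. No member changed direction among its calls.

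The difference of medians between oocyte-type and inflammasome genes, 0.48, was 1.02 with the input minimum, which left 3 oocyte-type and 4 inflammasome genes. It was 0.78 with a wider inflammasome group and 0.98 without windows with over 2% repeated words (chosen after seeing the data). In single experiments it was 0.38 (without v102) and 0.80 (without v134). With the GC trend removed, medians are relative to that trend and were 0.20 for inflammasome, 0.65 for oocyte-type, -0.80 for Toll-like receptor and -0.080 for other NOD-like receptor genes. The oocyte-type median was 2.37 over the 3 genes that met the input minimum. The Toll-like receptor median was 0.43 with 5 reads added, -0.34 with 0.5 added and -0.42 over the 4 genes that met the input minimum. It was -0.37 without mitochondrial promoters in the totals, -0.35 from summed reads, and -0.075 (without v134) to 0.0079 (without v102) in single experiments. The median of the other NOD-like receptors was 0.16 with 5 reads added and -0.27 to 0.0061 in single experiments, and that of the other caspases 0.26 with 5 reads added. Beyond their construction, the causes of these moves were not tested. edgeR was not run without an experiment, since 1 library per arm leaves no residual degrees of freedom. In the simulation, 18% of promoters lowered to 0.25 of their level were called, against 92% of those raised 4-fold. Only 200 promoters were changed there, far fewer than were called in the data, so the adjustment was stricter. These rates are not the power of the real fit. The median of all promoters was 0.34 with 5 reads added and -0.45 with 0.5 added.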
